A study of Danio rerio with 4 samples.

Results

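The genes described here are 40 zebrafish genes of the MYC family and of ribosome assembly, followed in hearts exposed to a vitamin D analog. They were taken by gene symbol from the authors' deposited heart table of 1 heart comparison, where all 40 had a row among 14962 genes. They fall into 5 roles: 3 MYC genes, 8 genes of small nucleolar ribonucleoproteins (snoRNPs), 13 of the small subunit processome and 40S maturation, 10 of 60S assembly, and 6 of RNA polymerase I and abundant nucleolar proteins.

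Adult zebrafish of the Ekkwill strain received alfacalcidol or vehicle by injection on each of 3 days, and RNA was taken from the heart 24 hours after the last injection, per the labels. Alfacalcidol is a synthetic vitamin D analog that the liver converts to the active hormone. Each group had 2 libraries, with totals of 33957706 and 39572163 counts for alfacalcidol replicates 1 and 2 and 31427486 and 34765941 counts for vehicle replicates 1 and 2. The labels do not say whether the libraries came from separate animals or pools, so p-values from the counts measure the spread between these libraries only.

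A ribosome is built in the nucleolus. RNA polymerase I transcribes the long precursor of the ribosomal RNAs, box C/D and box H/ACA snoRNPs methylate and pseudouridylate it, the processome folds and cleaves its small subunit part, and a separate set of factors assembles the 60S particle. MYC transcription factors bind DNA as partners of Max and are known activators of many of these genes in growing cells, and in the mature heart muscle cells rarely divide.

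The table and the count libraries hold different RNA and are described apart. The cardiac troponin gene tnnt2a stood at 7568 CPM (read counts scaled to library size) in the authors' deposited heart table. The libraries held it at 11.4 and 9.38 CPM under the alfacalcidol label and at 9.55 and 9.99 CPM under the vehicle label. The fast skeletal myosin light chain gene mylpfa showed the reverse, with 3.68 CPM in the authors' deposited heart table and between 4483 and 5701 CPM in the libraries. The cartilage collagen gene col2a1a stood at 2.69 CPM in the authors' deposited heart table and between 5711 and 6007 CPM in the libraries. Every listed cardiomyocyte marker was lower in the libraries than in the heart table. The authors' deposited heart table has myl7 at 20203 CPM, against 15.1 to 17.1 CPM in the libraries. For vmhcl these values were 43688 CPM and 40.6 to 46.5 CPM, and for cmlc1 10133 CPM and 8.21 to 10.8 CPM. The smallest ratio was that of ttn.2, with 4848 CPM in the heart table and between 2318 and 2447 CPM in the libraries. Next was vmhc, with 951 CPM in the heart table and between 102 and 143 CPM in the libraries. The libraries are labelled as heart, and with skeletal muscle and cartilage genes at these levels it is uncertain which tissue they hold, so their values for the members may not be values of the heart. The table gives no value per library and no standard error, and neither its libraries nor its numerator are named. A positive value is taken as higher with alfacalcidol because cyp24a1, a known target of the vitamin D receptor, is positive there, at 1.53 on the log2 scale of the authors' deposited heart table. Its mean level was low, at 3.69 CPM (authors' deposited heart table, edgeR adjusted p 8.19e-05). Every direction given for the heart table rests on the sign of this gene. In bulk RNA, fewer cells of a type and less RNA per cell cannot be told apart.

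Most of the 40 genes leaned upward in the heart table, by modest amounts. In the authors' deposited heart table, 18 of 40 were higher and 2 were lower at an edgeR adjusted p under 0.05, beside 10.9% and 9.22% of all rows (20.1% in either direction). A further 20 were not called. The log2 fold change was positive for 35 of 40 members in the authors' deposited heart table, against 51.0% of all rows, and its median was 0.52 over the members and 0.01 over all rows. Fold changes of the members ran from -0.67 for ddx21 to 1.47 for mycb on the log2 scale of the authors' deposited heart table. Ranked by log2 fold change, 32 of 40 stood above the 75th percentile of the authors' deposited heart table, 10 above the 90th and all but 3 above the 25th. With a 2-fold minimum as well, 4 members (mycb, heatr1, mych and dkc1) stayed higher and 0 lower in the authors' deposited heart table, beside 5.13% of all rows higher.

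**Figure D1:**
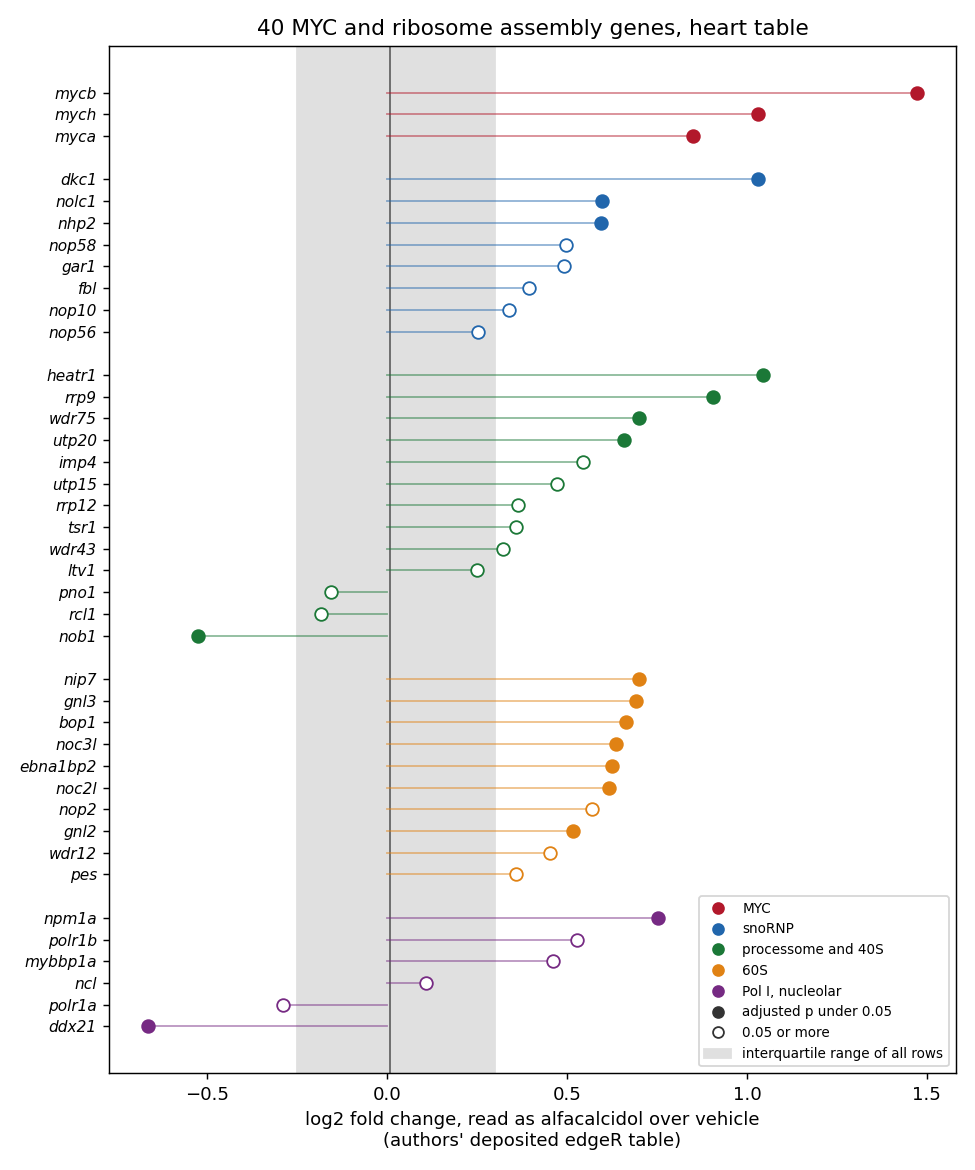
Log2 fold change of each of the 40 genes in the authors' deposited heart table (x axis), grouped by role down the y axis; filled points have an edgeR adjusted p under 0.05, and the grey band is the interquartile range of all 14962 rows. All 3 MYC genes and all 10 genes of 60S assembly lie right of the band, while ddx21, nob1 and polr1a lie left of it.

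All 3 MYC genes were higher in the heart table, beside 10.9% of all rows. In the authors' deposited heart table mycb (chromosome 2, 32033038 to 32035153, GRCz10) was 2.78-fold higher, a log2 fold change of 1.47 at an edgeR adjusted p of 9.59e-10, with a mean level of 69.4 CPM. It encodes a zebrafish counterpart of mammalian MYC and had the largest change of the 40 genes, with 438 of 14962 rows above it. The related gene mych (chromosome 6, 50452118 to 50455614) was 2.04-fold higher in the authors' deposited heart table (log2 1.03, edgeR adjusted p 0.000375, mean level 65.6 CPM). The other MYC counterpart, myca (chromosome 24, 10273098 to 10275662), was 1.80-fold higher in the authors' deposited heart table (log2 0.85, edgeR adjusted p 0.0303). Its mean level there was only 1.85 CPM, so the size of its change is uncertain.

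Genes of the snoRNP particles were all positive, with 3 of 8 called, all higher (37.5%, beside 10.9% of all rows). The dyskerin gene dkc1 encodes the pseudouridine synthase of box H/ACA particles. On chromosome 21 (43706834 to 43721295, GRCz10), it was 2.04-fold higher in the authors' deposited heart table (log2 1.03, edgeR adjusted p 0.000469, mean level 36.7 CPM). Its partner gene nhp2 was higher by 0.60 on the log2 scale of the authors' deposited heart table (edgeR adjusted p 0.0150). The same table has nolc1, which encodes a nucleolar phosphoprotein that binds snoRNPs, at a log2 fold change of 0.60 (authors' deposited heart table, edgeR adjusted p 0.0273). Of the other box H/ACA proteins, gar1 was at 0.49 and nop10 at 0.34 in the authors' deposited heart table, neither called. The box C/D core was not called either. Its methyltransferase gene fbl was at 0.39 and its scaffold genes nop58 and nop56 at 0.50 and 0.25 on the log2 scale of the authors' deposited heart table (edgeR adjusted p 0.196, 0.150 and 0.368).

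Within the small subunit group the called increases were all in factors that act early, a division made after the values were seen. Of its 13 genes, 4 were higher (30.8%), 1 was lower (7.69%) and 8 were not called in the authors' deposited heart table. All rows had 10.9% higher and 9.22% lower. In the authors' deposited heart table heatr1 (chromosome 12, 9582066 to 9662762, GRCz10), counterpart of a processome subunit that in yeast also serves rRNA gene transcription, was 2.06-fold higher (log2 1.04, edgeR adjusted p 2.43e-05, mean level 26.2 CPM). The gene of the U3 snoRNP protein rrp9 was 1.87-fold higher in the authors' deposited heart table (log2 0.91, edgeR adjusted p 0.0148, mean level 6.22 CPM). For the processome genes wdr75 and utp20 the log2 fold changes were 0.70 and 0.66 in the authors' deposited heart table (edgeR adjusted p 0.00453 and 0.00761). Early factors without a call had positive values in the authors' deposited heart table, at 0.54 for imp4 of the U3 complex, 0.47 for utp15 and 0.32 for wdr43, except for rcl1 at -0.18.

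The late factors nob1, pno1, ltv1, tsr1 and rrp12 act on precursors of the 40S subunit near or after nuclear export, and none of them was higher. The gene nob1, encoding the endonuclease that forms the end of the mature 18S rRNA, was lower at -0.53 in the authors' deposited heart table (chromosome 18, 5245562 to 5260451, edgeR adjusted p 0.0211, mean level 45.4 CPM). Its partner gene pno1 stood at -0.16 on the log2 scale of the authors' deposited heart table, without a call. The remaining late factors were positive without a call in the authors' deposited heart table, at 0.25 for ltv1, 0.36 for tsr1 and 0.36 for rrp12. Whether early and late factors differ was not tested.

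In the 60S group 7 of 10 genes were higher and 0 lower by the authors' deposited heart table, beside 10.9% and 9.22% of all rows. Differences between the roles were not tested, and the further 60S genes described after the members had a smaller share of higher calls. Their values were close together, between 0.36 and 0.70 on the log2 scale over all 10 genes of the authors' deposited heart table. The gene bop1, of the PeBoW complex of 60S maturation, was at 0.66 in the authors' deposited heart table (edgeR adjusted p 0.00526, mean level 18.7 CPM). Its PeBoW partners were not called, wdr12 at 0.45 and pes at 0.36 in the authors' deposited heart table (edgeR adjusted p 0.105 and 0.166). The nucleolar GTPase gene gnl3, also called nucleostemin, was at 0.69 in the authors' deposited heart table (edgeR adjusted p 0.00951, mean level 40.7 CPM). The nucleolar complex genes noc2l and noc3l were at 0.62 and 0.64 and ebna1bp2, a 60S assembly factor, at 0.63 in the authors' deposited heart table (edgeR adjusted p 0.00973, 0.0184 and 0.0122). The other called genes were nip7 at 0.70 and the GTPase gene gnl2 at 0.52 in the authors' deposited heart table. The rRNA methyltransferase gene nop2 was at 0.57 in the authors' deposited heart table, not called at an edgeR adjusted p of 0.0523.

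Among the 6 genes of RNA polymerase I and the abundant nucleolar proteins, 1 was higher and 1 lower (16.7% each). All rows had 10.9% higher and 9.22% lower, and counts this small do not set the group apart. The nucleophosmin gene npm1a was 1.69-fold higher in the authors' deposited heart table (log2 0.75, edgeR adjusted p 0.0118, mean level 179 CPM). The helicase gene ddx21, whose product acts in rRNA transcription and processing, was lower at -0.67 in the authors' deposited heart table (chromosome 13, 189374 to 199790, GRCz10, edgeR adjusted p 0.00654, mean level 86.4 CPM). The 2 large polymerase subunit genes had opposite signs without a call, polr1b at 0.53 and polr1a at -0.29 in the authors' deposited heart table (edgeR adjusted p 0.0610 and 0.305). The nucleolin gene ncl was at 0.11 at a mean level of 332 CPM in the authors' deposited heart table, and mybbp1a, which encodes a nucleolar transcriptional co-repressor, was at 0.46 (authors' deposited heart table, edgeR adjusted p 0.756 and 0.0575).

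**Figure D2:**
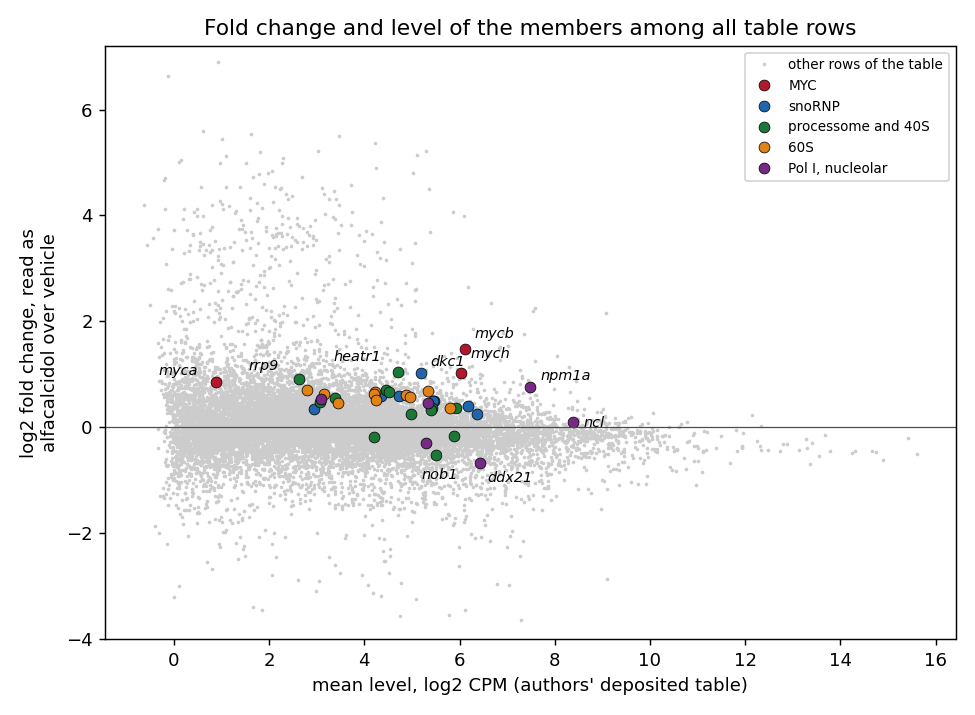
Log2 fold change (y axis) against mean level in log2 CPM (x axis) for every row of the authors' deposited heart table (grey) and the 40 genes (coloured by role). The members stay between -0.67 and 1.47, well inside the range of all rows from -3.63 to 6.89.

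Within the 40 genes, lower mean level went with a larger log2 fold change in the authors' deposited heart table (Spearman correlation -0.31 over 40 genes, -0.43 without the 3 MYC genes). Over all 14962 rows of the authors' deposited heart table the same correlation was -0.21. Genes share libraries and are not replicates, and CPM levels are not scaled to transcript length, so these are descriptions. The members lay on 21 chromosomes of the authors' deposited heart table. Only 2 pairs of members lay less than 100 kb apart. On chromosome 18, nip7 (5229548 to 5236026) and nob1 lie 9.5 kb apart with log2 fold changes of 0.70 and -0.53, and on chromosome 6, wdr12 and nop58 lie 17.9 kb apart at 0.45 and 0.50 (authors' deposited heart table).

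The spans of 10 members overlapped that of another row of the authors' deposited heart table, and no source used here gives the strand setting of the counting, so reads of these genes are uncertain. Both lower members are among them: ddx21 overlaps zgc:64201 (0.42) and nob1 overlaps wdr59 (0.26), with log2 fold changes of opposite sign in the authors' deposited heart table. The same holds for wdr75 and utp20, which overlap stat4 and arl1 (-0.52 and -0.06), while gnl3 and noc3l overlap rows of the same sign (authors' deposited heart table). Of the 30 members without an overlap, 14 were higher and 0 lower by the authors' deposited heart table, beside 10.9% and 9.22% of all rows. This group was chosen after its values were seen, and the shares among all rows without an overlap were not computed. Whether overlap bears on the calls was not tested.

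Other genes of ribosome assembly had shares of higher calls above that of all rows (10.9%). These lists and those that follow were chosen with earlier results of these data known, so they are not independent support for the members' values. Of 49 further processome and 40S genes, the authors' deposited heart table has 19 higher (38.8%) and 0 lower, at a median of 0.36 on the log2 scale. They included nol6 at 0.95, dimt1l at 0.88, nol11 at 0.80 and bms1 at 0.72 (authors' deposited heart table, edgeR adjusted p 0.000906, 0.000979, 0.000753 and 0.00105). For 57 further 60S genes the authors' deposited heart table has 11 higher (19.3%) and 4 lower, with a median of 0.38, among them urb2 at 0.90, urb1 at 0.79 and rbm28 at 0.74 against rsl24d1 at -0.69. Of 13 genes for snoRNP assembly 7 were higher (53.8%) and 0 lower by the authors' deposited heart table, with a median of 0.63. Among them naf1, needed to assemble box H/ACA particles, was at 1.18, and the ATPase genes ruvbl2 and ruvbl1 were at 0.96 and 0.65 (authors' deposited heart table, edgeR adjusted p 4.14e-06 for naf1 and 0.00181 for ruvbl2). The gene shq1, which encodes a chaperone of dyskerin, was higher by 0.71 in the authors' deposited heart table.

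Lists of RNA synthesis and decay are read against the same 10.9% higher and 9.22% lower over all rows. The authors' deposited heart table has 2 of 12 further polymerase I genes higher (16.7%) and 1 lower (8.33%), close to those shares. The higher ones were polr1e at 0.63 and taf1a at 0.70, with taf1a at a mean level of only 2.74 CPM. The lower one was ubtf at -0.75, whose product is the main activator of rRNA gene promoters (authors' deposited heart table, edgeR adjusted p 0.000381). Of 18 genes of RNA polymerase III, which makes 5S rRNA and tRNA, 4 were higher (22.2%) and 0 lower by the authors' deposited heart table, led by polr3d at 1.09. Among 24 genes of the exosome and RNase MRP, which trim and cut the rRNA precursor, 6 were higher (25%) and 0 lower by the authors' deposited heart table. The nuclease gene dis3 was at 0.998 and rpp40 at 1.04, with rpp40 at a mean level of only 2.74 CPM (authors' deposited heart table).

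Ribosomal protein genes were almost all without a call. Of 86 such genes, 0 were higher and 1 was lower (1.16%) by the authors' deposited heart table, beside 10.9% and 9.22% of all rows. A positive log2 fold change was found for 10 of them (11.6%), against 51.0% of all rows, with a median of -0.12. The called gene was rps8b at -0.61 (authors' deposited heart table, edgeR adjusted p 0.00571). Translation factors were likewise mostly not called, with 1 of 41 higher and 1 lower (2.44% each) in the authors' deposited heart table and a median of -0.03. The lower one was eif4ebp3l, an inhibitor of cap-dependent initiation, at -1.27 (authors' deposited heart table, edgeR adjusted p 3.23e-09). Of 22 aminoacyl-tRNA synthetase genes 6 were higher (27.3%) and 1 lower by the authors' deposited heart table, with a median of 0.40, among them larsa at 0.79, larsb at 0.62 and mars at 0.62 against tarsl2 at -0.75.

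Regulators around MYC were called about as often as all rows. Of 19 genes of the MYC network, 2 were higher and 2 lower by the authors' deposited heart table (10.5% each, beside 10.9% and 9.22% of all rows), 6 had a positive log2 fold change, and the median was -0.16. The gene max, which encodes the DNA-binding partner of MYC, was lower at -0.63 and mxi1, which encodes a repressor that competes with MYC for Max, was lower at -1.29 (authors' deposited heart table, edgeR adjusted p 0.0232 and 1.59e-08). A second competitor gene, mxd3, was higher at 2.004, at a mean level of only 4.36 CPM (authors' deposited heart table, edgeR adjusted p 4.13e-05). The gene trrap, which encodes a co-activator of MYC, was higher at 0.53 (authors' deposited heart table, edgeR adjusted p 0.0316). Of 37 known MYC targets outside the ribosome, 8 were higher (21.6%) and 1 lower by the authors' deposited heart table, with a median of 0.30. Examples are the folate enzyme gene shmt1 at 2.80, the DNA repair gene apex1 at 1.38 and the arginine methyltransferase gene prmt5 at 0.98, against nme2b.2 at -1.10 (authors' deposited heart table, edgeR adjusted p 1.93e-23, 1.41e-09, 0.000105 and 9.81e-07).

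**Figure D3:**
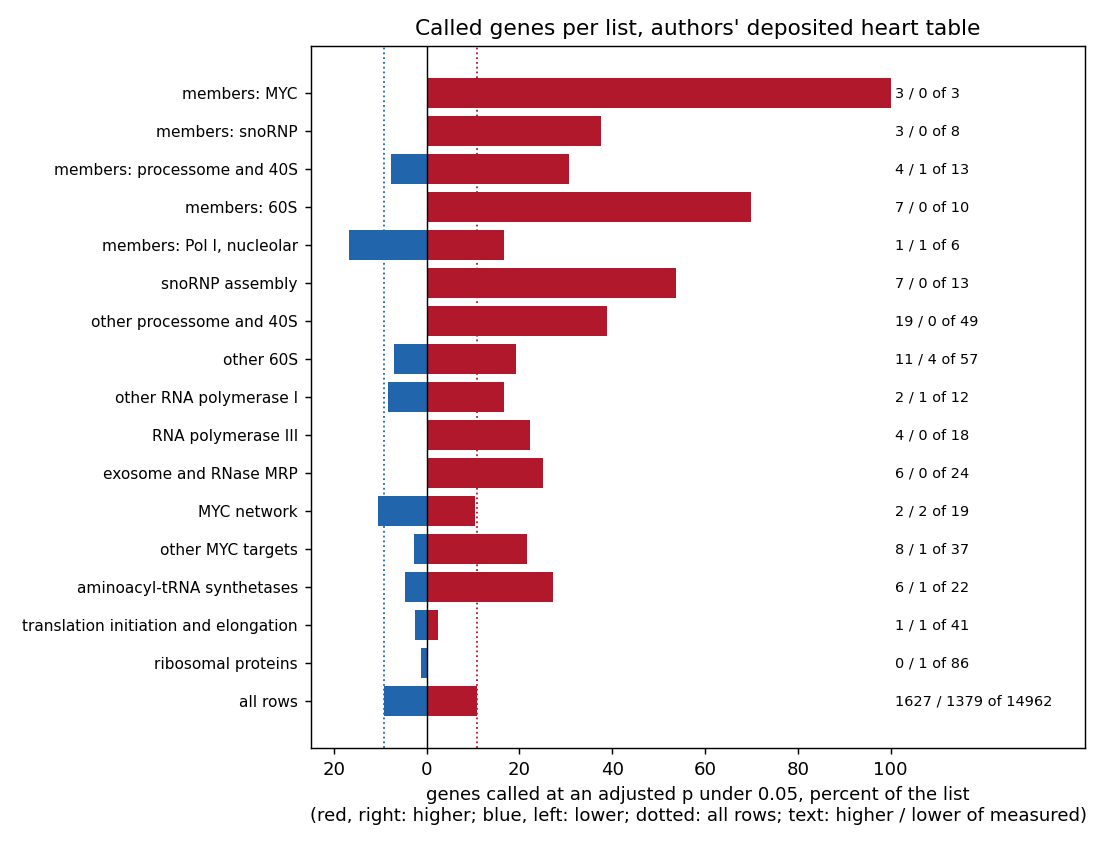
Share of each list called higher (red, right) or lower (blue, left) at an edgeR adjusted p under 0.05 in the authors' deposited heart table (x axis, percent of measured genes; y axis, lists), with the shares of all rows as dotted lines. Bars for ribosome assembly lists extend right of the 10.9% line, and ribosomal proteins have 0 higher and 1 lower of 86.

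Calls among DNA replication genes and cell type markers in the same table stand beside 10.9% of all rows higher and 9.22% lower. The members' median was 0.52 on the log2 scale of the authors' deposited heart table, against 3.22 for 24 genes of DNA replication, all of them higher. All 5 neutrophil markers were lower (median -2.07), as were 5 of 8 endothelial, 3 of 7 macrophage, 2 of 5 erythrocyte and 2 of 10 cardiomyocyte markers in the authors' deposited heart table (medians -0.67, -0.50, -0.50 and -0.34). The neutrophil markers had low mean levels there, from 1.43 CPM for mpx to 4.27 CPM for mmp13a, so the size of their change is uncertain. Epicardial and fibroblast markers had 1 of 8 lower (12.5%), near the share of all rows, skeletal muscle markers had 1 of 5 lower, and 0 of 2 cartilage markers were called (authors' deposited heart table). Of 8 lymphocyte and 8 gonad markers, 0 and 0 were matched in the authors' deposited heart table. The part of these changes in the members' values was not tested.

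In the count libraries none of the 40 genes was called between the labels. The edgeR quasi-likelihood test called 0 of 40 members and 0 of 22428 genes, which is 0%, at a Benjamini-Hochberg adjusted p of 0.05. At an unadjusted p under 0.05 it placed 0 of 40 members, beside 0.571% of all genes. A test at this threshold would place more genes than that if no gene changed, so it was conservative on these libraries. Calls of 0 therefore do not show that the members were unchanged, and the 95% intervals hold the same error. On the same 4 libraries the edgeR exact test, limma-voom and DESeq2 also called 0 members, with 0 members at an unadjusted p under 0.05 in each. These tests called 0 of all 22428 genes too. At an unadjusted p under 0.05 they placed only 133, 121 and 19 of all genes, so the members' 0 does not set them apart. Members were well covered, with 275 to 19864 counts per library. Log2 fold changes ran from -0.19 to 0.09, with a median of 0.01 and 22 of 40 positive. That number rests on single libraries: it was 11 without alfacalcidol 1, 32 without alfacalcidol 2, 13 without vehicle 1 and 32 without vehicle 2. The 95% intervals of the members all lay between -0.45 and 0.38. The 11 other pathway lists had 0 called genes as well, with medians between -0.02 and 0.03.

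Levels of the MYC genes overlapped between the labels. The gene mycb stood at 32.4 and 28.2 CPM in the alfacalcidol libraries 1 and 2 and at 31.8 and 32.2 CPM in the vehicle libraries 1 and 2 (log2 fold change -0.08, 95% interval -0.31 to 0.15). For mych the values were 45.8 and 37.6 CPM in the alfacalcidol libraries and 39.0 and 48.8 CPM in the vehicle libraries (log2 fold change -0.08, interval -0.41 to 0.26). For myca they were 30.9 and 28.6 CPM in the alfacalcidol libraries and 28.1 and 29.6 CPM in the vehicle libraries (log2 fold change 0.04, interval -0.17 to 0.25). In each of the 3 genes alfacalcidol 1 was above alfacalcidol 2 and vehicle 2 above vehicle 1.

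Several assembly genes called in the heart table were as close between the labels. The called genes rrp9, nhp2, nolc1 and ddx21, for which the labels did not overlap, are given in the next paragraph. The dyskerin gene dkc1 stood at 57.9 and 51.0 CPM in the alfacalcidol libraries and 53.2 and 54.2 CPM in the vehicle libraries (log2 fold change 0.02). For heatr1 these were 37.6 and 34.9 CPM in the alfacalcidol libraries and 35.4 and 38.0 CPM in the vehicle libraries (log2 fold change -0.02). For bop1 they were 28.0 and 27.1 CPM in the alfacalcidol libraries and 26.6 and 28.8 CPM in the vehicle libraries (log2 fold change -0.01). For all 3 genes the labels overlapped. The 60S gene gnl3 had 40.8 and 36.6 CPM in the alfacalcidol libraries and 33.8 and 40.5 CPM in the vehicle libraries, and noc2l had 36.1 and 37.5 CPM in the alfacalcidol libraries and 35.3 and 38.2 CPM in the vehicle libraries. Nucleophosmin npm1a stood at 148 and 146 CPM in the alfacalcidol libraries and 143 and 147 CPM in the vehicle libraries. The processome genes wdr75 and utp20 overlapped too, with log2 fold changes of 0.03 and -0.04, as did nob1 at -0.01.

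For 6 members the labels did not overlap. Both alfacalcidol libraries were above both vehicle libraries for 3 members and below them for 3, beside 10.6% and 10.5% of all genes. These counts are too small to set the members apart from all genes, and no difference was tested. The higher ones were nhp2, nolc1 and pes, at log2 fold changes of 0.09, 0.07 and 0.08, and the lower ones rrp9, tsr1 and ddx21, at -0.19, -0.05 and -0.06. In the authors' deposited heart table rrp9 and tsr1 had the opposite sign, at 0.91 and 0.36. There nhp2, nolc1, pes and ddx21 had the same sign as in the libraries. The gene with the lowest p was rrp9, at 11.0 and 10.4 CPM in the alfacalcidol libraries and 11.7 and 12.6 CPM in the vehicle libraries (edgeR unadjusted p 0.128, adjusted p 1.0). For ddx21 the values were 99.2 and 93.9 CPM in the alfacalcidol libraries and 99.8 and 101.5 CPM in the vehicle libraries. The 95% interval of the log2 fold change included 0 for each of these 6 genes.

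Deviations from the label means ran together for alfacalcidol 1 with vehicle 2 and for alfacalcidol 2 with vehicle 1 (correlation 0.47 over 22428 genes). With 2 libraries per label both pairs give the same value by construction. The 40 members summed to 2159 and 2055 CPM in alfacalcidol 1 and 2 and to 2031 and 2151 CPM in vehicle 1 and 2. For 29 of 40 members (72.5%) alfacalcidol 1 was above alfacalcidol 2 and vehicle 2 above vehicle 1, a pattern that 33.5% of all 22428 genes had. With this crossed pairing as a block, added after seeing the data, 788 genes had an edgeR unadjusted p under 0.05, against 128 without it. Under that block edgeR again called 0 members, and the lowest unadjusted p among them was 0.0665, for rrp9.

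**Figure D4:**
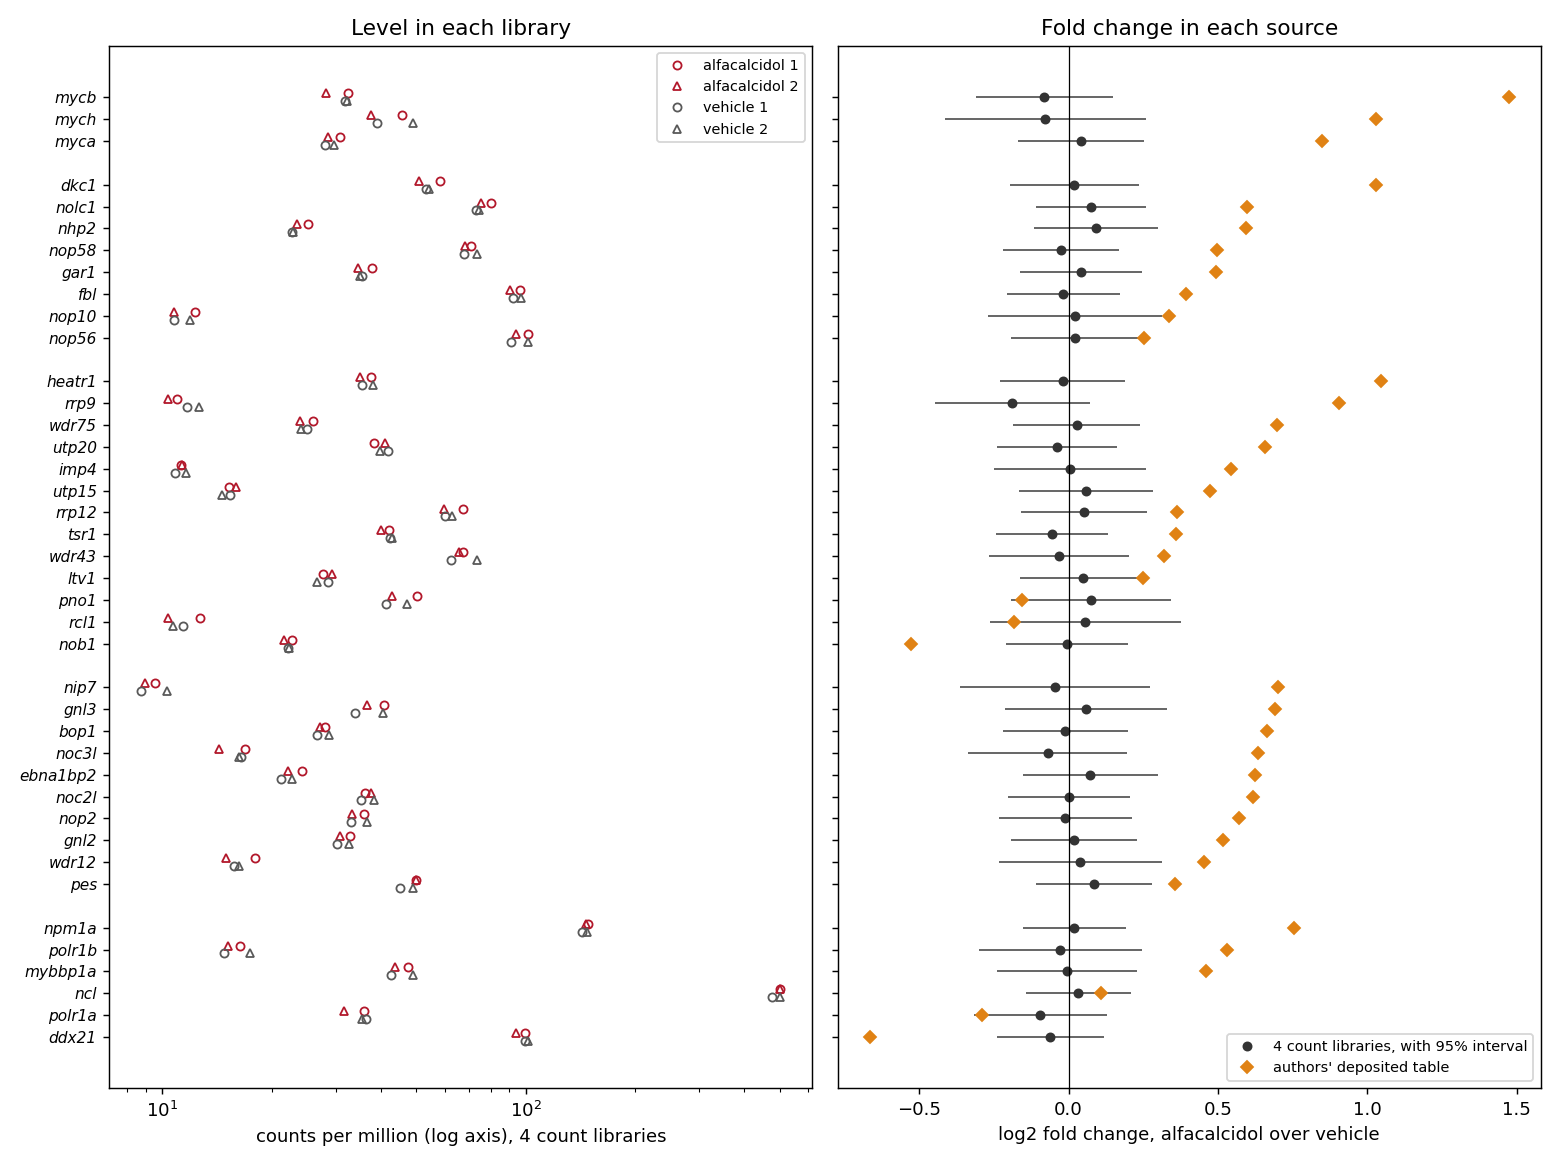
Left: CPM level of each of the 40 genes (y axis) in the alfacalcidol (red) and vehicle (grey) count libraries, on a log x axis. Right: log2 fold change of alfacalcidol over vehicle in those libraries with its 95% interval (black) and in the authors' deposited heart table (orange), which gives no error. The orange point of mycb is at 1.47 and the interval ends at 0.15.

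Set side by side, members that led the heart table had smaller fold changes in the libraries. They were picked by their values in the heart table, and all 40 members lay between -0.19 and 0.09 in the libraries. The smaller values are therefore not particular to these genes. For mycb the authors' deposited heart table has 1.47 on the log2 scale, and the 95% interval of the libraries ended at 0.15. For heatr1 the authors' deposited heart table has 1.04, and the interval of the libraries ended at 0.19. The intervals hold the error of the libraries only, the table gives no error, and the sources hold different RNA and were normalized separately, so their difference was not tested. Mean levels had a Spearman correlation of 0.83 over the 40 genes between the authors' deposited heart table and the libraries. As a ratio, the largest gap was myca, 15.8-fold lower in the heart table, at 1.85 CPM in the authors' deposited heart table and between 28.1 and 30.9 CPM in the libraries. The gap for mycb was the reverse, with 69.4 CPM in the authors' deposited heart table and between 28.2 and 32.4 CPM in the libraries.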

How the data were processed

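Raw read counts of 31462 Ensembl genes in 4 libraries were deposited by the authors. CASAVA, TopHat2, featureCounts and edgeR on GRCz10 are named in the submitters' processing notes. No source used here gives their versions, the strand setting or how shared reads were counted. The authors' deposited table gives log2 fold changes, log2 CPM levels and p-values of 14962 genes, and its adjusted p-values were checked to be Benjamini-Hochberg values. Members and lists were matched by symbol; members were joined to the counts by Ensembl ID. Ribosomal proteins were matched by the rpl and rps name pattern.

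The main test was the two-sided quasi-likelihood F-test of edgeR 4.0.16 (R 4.3.3) with group as its only term, TMM scaling and filterByExpr, on 22428 genes. It was run on simulated data with independent libraries and large changes. That check does not cover the crossed pairing or the small changes seen in these libraries. CPM are TMM-scaled. Other settings used limma 3.58.1 and DESeq2 1.42.0. Members and lists were chosen with earlier results of these data known. Log2 fold changes with adjusted p-values went to the MYC genes and up to 5 called members per role, with mean levels for some of them. Library values went to up to 3 called members per role, as CPM for some and as log2 fold changes only for others. Up to 4 called genes per other list were named. Library values of nob1, rrp9 and members without overlap, and splits by early or late role, were chosen after their values were seen. No sequence is shown.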

Additional observations from a re-analysis of the deposited data

How the results depend on the processing

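In the authors' deposited table the 18 higher and 2 lower members became 9 and 1 at an adjusted p of 0.01 (all rows 7.53% and 6.22%) and 4 and 0 with a 2-fold minimum (all rows 5.13% and 3.31%). At an adjusted p of 0.1 they were 22 and 2 (all rows 13.6% and 11.8%). Keeping only rows of 1 CPM or more left both counts as they were, but it removed 0 members and changed their adjusted p-values only slightly. Centring on the median of all rows also left both counts as they were. It kept the deposited adjusted p-values, so it could change only a sign. Neither setting is a check on the members' calls. An adjusted p of 0.1 moved 5 counts of other lists in the authors' deposited table by over 1.5 times: 17 further 60S genes, 6 further polymerase I genes and 10 exosome or RNase MRP genes were higher, and 4 MYC network genes and 2 translation genes were lower. There were smaller increases to 23 processome and 40S, 6 polymerase III, 8 snoRNP assembly, 11 MYC target and 8 synthetase genes higher. No library could be left out of that table.

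In the count libraries 0 members were called under every setting run on all libraries. Over all genes the calls were 0 as well, except with the crossed block below, so the members' 0 does not set them apart. With the replicate number as a block, edgeR called 0 members and 0 genes. Same-numbered libraries deviated in opposite directions (correlation -0.47 over 22428 genes). With 2 libraries per label this value is by construction that of the crossed pairs with its sign changed. Whether the numbers mark a shared batch is not given by the labels and was not tested. A block on the crossed pairing, added after seeing the data, called 0 members and 7 genes. Leaving out each library in turn put the members' median log2 fold change between -0.0481 and 0.0613. The same step gave log2 fold changes on both sides of 0 for myca (-0.0144 to 0.0983), mycb (-0.1825 to 0.0154), mych (-0.2316 to 0.0988), dkc1 (-0.0755 to 0.1095), heatr1 (-0.0734 to 0.0365), wdr75 (-0.0312 to 0.0844), utp20 (-0.0928 to 0.0113), nob1 (-0.041 to 0.0283), bop1 (-0.0666 to 0.0506), gnl3 (-0.0672 to 0.1964), noc2l (-0.0556 to 0.0648) and npm1a (-0.0029 to 0.0448). Log2 fold changes kept their sign for nhp2 (0.0413 to 0.1395), nolc1 (0.0274 to 0.1196), rrp9 (-0.2432 to -0.1296) and ddx21 (-0.1011 to -0.0212). For these genes the labels did not overlap, so apart from rescaling their sign could not change in this step. Ranges are given for some members only, and others, such as pes and tsr1, also kept their sign.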
